A study of Mus musculus with 12 samples.

Results

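A set of 9 genes of adrenergic, angiotensin and corticoid signalling were examined for CpG methylation in the left ventricle of mouse offspring: Adrb1, Adra1a, Adra1b, Agt, Agtr1a, Ace, Nr3c1, Nr3c2 and Fkbp5. The members were all CpG positions inside these 9 genes or within 5 kb of them (RefSeq gene limits, GRCm38) that had a value in all 12 samples. There were 228 such sites, of 312650 in the whole table. Counting also positions with a missing value there were 327, of 421177. The study asked how obesity of the mother bears on the heart of her offspring. Wild-type FVB/N females were fed either a regular diet (RD) or a high-fat diet (HFD), which began at 6 weeks of age, and after 8 weeks of feeding they were mated to RD-fed males. The 12 offspring were taken at 3 weeks, when they were weaned, and were to receive RD alone from then on. The HFD group held 3 females and 3 males and the RD group 4 females and 2 males. The labels do not state the number of mothers or which offspring shared one, so p-values measure the spread between offspring only. DNA came from whole left ventricle, in which a methylation level averages over muscle cells, vessel cells, fibroblasts and blood cells, and a changed mixture cannot be told apart from a change within 1 cell type.

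These genes carry the signals by which nerves and hormones drive the heart. Noradrenaline and adrenaline act on the beta and alpha1 receptors, angiotensin II is cut from angiotensinogen by the enzymes renin and ACE and acts on the AT1 receptor, and corticosterone and aldosterone act on 2 related nuclear receptors that bind DNA. DNA methylation at a CpG-dense gene start usually goes with a silent promoter, CpG-dense starts of active genes are usually free of it, and the bodies of genes are usually methylated.

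All 9 genes had CpG positions in the table, and 8 had positions with complete values. The numbers of complete positions were 33 for Adrb1, 15 for Adra1a, 25 for Adra1b, 4 for Agtr1a, 35 for Ace, 36 for Nr3c1, 32 for Nr3c2, 48 for Fkbp5 and 0 for Agt, whose 5 positions each lacked at least 1 sample. Gene ends, meaning positions within 1000 bp of either end of the gene, held 72 of the complete sites and were covered in only 4 genes, with 43 sites in Fkbp5, 20 in Ace, 7 in Adrb1 and 2 in Adra1a. Gene bodies, farther than 1000 bp inside both ends, held 150 sites and the flanks 6. The assay reads DNA next to cuts at CCGG, and the RefSeq promoter sequences (GRCm38.p6, 250 bases before to 50 after a start) show what each start offers. Of 32851 promoters in that table, 52.8% held a CCGG and the median number of CpGs was 7. Sequences were matched for 6 of the 9 genes, and none for Adra1a, Agtr1a and Nr3c1. Of the 6, 4 are shown because they contrast a start that was read in every sample, a pair read in part and one that was not read. In the Ace, Fkbp5 and Nr3c2 lines capitals mark each CpG with a value in the table, and in the Agt line they mark its single CpG, which had none. Coordinates are GRCm38.
Ace, chr11:105967698-105967997, plus strand: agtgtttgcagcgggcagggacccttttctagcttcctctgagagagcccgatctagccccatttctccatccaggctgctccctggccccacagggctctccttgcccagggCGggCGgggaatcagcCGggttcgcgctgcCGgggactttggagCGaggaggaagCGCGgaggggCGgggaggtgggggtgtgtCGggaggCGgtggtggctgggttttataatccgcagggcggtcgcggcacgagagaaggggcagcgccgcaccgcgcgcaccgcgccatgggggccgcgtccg
Fkbp5, chr17:28486100-28486399, minus strand: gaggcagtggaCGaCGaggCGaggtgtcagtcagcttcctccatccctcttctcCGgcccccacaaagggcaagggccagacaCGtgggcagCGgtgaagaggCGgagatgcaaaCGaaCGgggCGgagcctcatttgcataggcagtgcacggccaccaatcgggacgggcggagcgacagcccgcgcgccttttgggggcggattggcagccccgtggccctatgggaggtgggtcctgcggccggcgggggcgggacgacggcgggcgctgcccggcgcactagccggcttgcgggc
Nr3c2, chr8:76902080-76902379, plus strand: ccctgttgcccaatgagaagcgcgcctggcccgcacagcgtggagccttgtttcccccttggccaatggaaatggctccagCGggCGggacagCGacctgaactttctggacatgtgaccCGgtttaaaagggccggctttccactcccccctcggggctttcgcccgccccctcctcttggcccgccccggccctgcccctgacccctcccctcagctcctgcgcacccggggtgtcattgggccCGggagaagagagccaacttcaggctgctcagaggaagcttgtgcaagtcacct
Agt, chr8:124569657-124569956, minus strand: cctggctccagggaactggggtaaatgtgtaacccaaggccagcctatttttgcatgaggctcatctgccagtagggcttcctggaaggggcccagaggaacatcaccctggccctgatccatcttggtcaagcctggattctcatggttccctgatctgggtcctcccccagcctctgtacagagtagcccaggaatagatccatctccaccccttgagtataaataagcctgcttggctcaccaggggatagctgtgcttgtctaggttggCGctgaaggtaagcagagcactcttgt

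The Ace promoter held 29 CpGs and 2 CCGG sites, and 10 of its CpGs had complete values. The Fkbp5 promoter held 32 CpGs and 4 CCGG sites, and 10 of its CpGs had values in 10 or 11 samples. The Nr3c2 promoter held 17 CpGs and 5 CCGG sites, with 1 CpG complete and 4 incomplete. The Agt promoter held 1 CpG and no CCGG, and the letters TATAAA, which 13.6% of all promoters hold on either strand, began at -30 from the start. At most 1 CpG was found in 14.1% of all promoters. Adrb1 had a promoter of 28 CpGs and 3 CCGG sites. None of these CpGs had a value, and the measured sites of Adrb1 began farther upstream. Adra1b had 2 RefSeq starts, neither of them read. The promoter of the outer one held 3 CpGs and no CCGG, and that of the inner one 28 CpGs and 4 CCGG sites. A CCGG in the promoter thus did not always go with a value there.

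The deposited values were percent methylation with no coverage, and the depth behind a single value is therefore unknown. Samples had values at 385299 to 417081 positions. All HFD libraries carry lower numbers (2 to 8) than all RD libraries (9 to 14), and the order of the libraries cannot be told apart from the diet. Markers of endothelial cells, fibroblasts and leukocytes (7 genes each) had no gene-end window with 3 complete sites, so the makeup of the tissue was not tested with them. Of 8 cardiomyocyte markers, Myh6, Nkx2-5 and Tnnt2 had windows in the tested range, with 67.3% in HFD and 71.1% in RD for Myh6, 7.34 and 6.84% for Nkx2-5 and 49.0 and 47.7% for Tnnt2, and 0 of the 3 had an unadjusted p under 0.05 with limma. For description, neighbouring sites at most 150 bp apart were joined into blocks, which gave 40 blocks in the 8 genes. Of these, 19 had a mean under 10%, 15 had a mean over 60%, and 6 lay between.

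**Figure D1:**
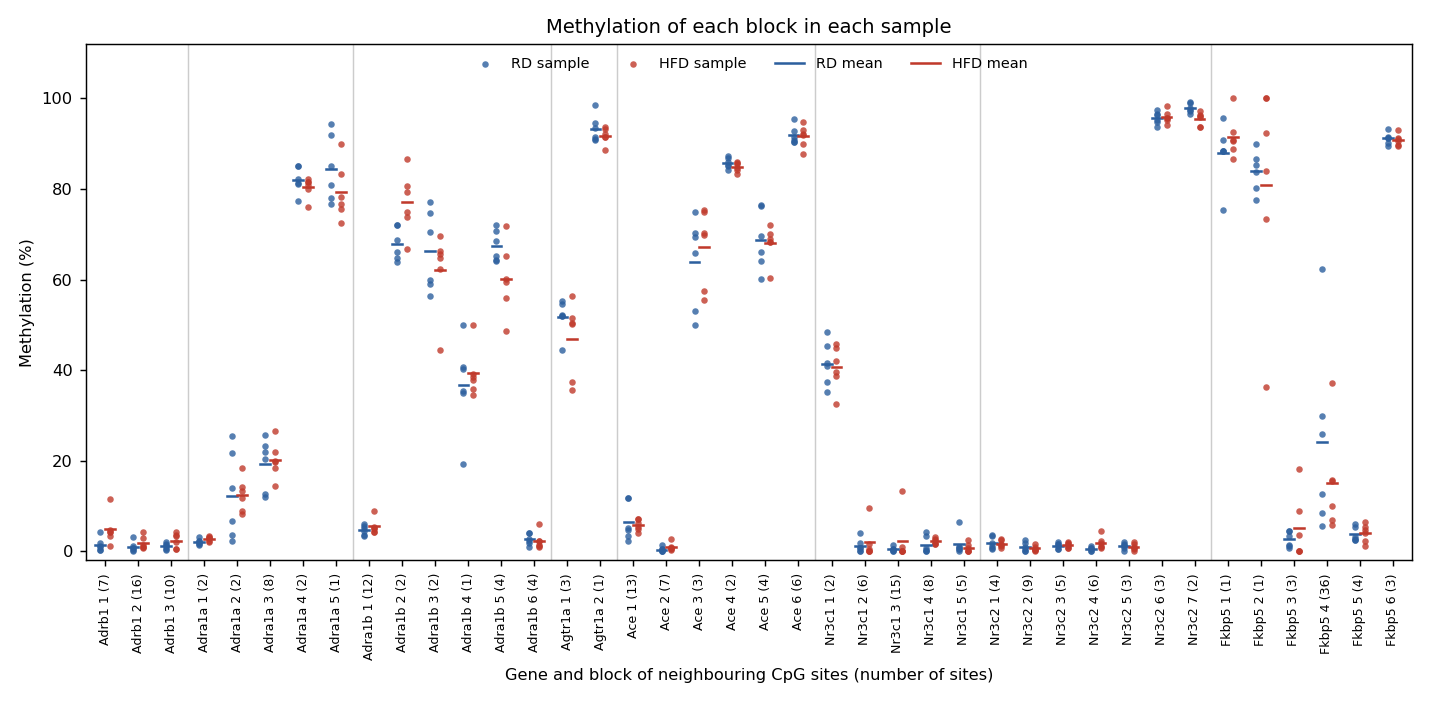
Mean methylation (y axis, percent) of the 40 blocks of neighbouring CpG sites, in genome order within each gene (x axis, number of sites in brackets), with 1 point per sample (blue RD, red HFD, 6 samples each) and a line at each diet's mean. Most blocks lie near 0 or over 60% with the diets mixed, and the 36-site block of Fkbp5 spreads from 5.53 to 62.3%.

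Adrb1 encodes the beta1 receptor, the main adrenergic receptor of heart muscle, and is a short gene on chromosome 19 (56722117 to 56725150). All of its 33 complete sites were nearly unmethylated, with site means from 0.439 to 5.06%. The 7 sites upstream of the start, at -427 to -365, had a lowest, median and highest sample mean of 1.18, 4.27 and 11.6% in HFD and of 0.298, 1.06 and 4.28% in RD. The highest sample was HFD male 3, and the other 5 HFD samples lay between 1.18 and 4.75%, overlapping with RD. The diet means were 4.90% ± 3.54 (SD, n = 6) and 1.48% ± 1.48 (SD, n = 6). With sex in the model the difference was 3.27 percentage points, with a 95% interval of -0.149 to 6.69, and it missed the threshold (limma on untransformed rates, unadjusted p = 0.0590, adjusted p = 0.820). On the log2 ratio without a limit on the mean the unadjusted p was 0.0260 and the adjusted p 0.715. Without HFD male 3 the difference in means was 2.08 points. The 26 sites of the gene body had means of 2.08% ± 1.34 (SD, n = 6) and 1.03% ± 0.799 (SD, n = 6). Only 1 Adrb1 site, at 56723403 in the body, had a mean of 5 to 95%. It had 6.99% ± 4.68 in HFD and 3.12% ± 2.48 in RD (SD, n = 6 each; limma, adjusted p = 0.851). Adrb1 thus had no methylated stretch among the positions read.

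Adra1a encodes the alpha1A receptor, which couples to Gq and calcium release, and lies on chromosome 14 (66635251 to 66771240). Its 2 sites at the lower-coordinate end had 2.84% ± 0.538 in HFD and 2.08% ± 0.680 in RD (SD, n = 6 each). Levels were higher farther into the gene. The 2 sites 1214 to 1247 bp inside it averaged 12.4% over the 12 samples, 8 sites at 66638086 to 66638238 averaged 19.8%, a 2-site block beginning 68827 bp inside averaged 81.2% (94.2 and 68.2% at its sites), and the site 91024 bp inside averaged 81.9%. The body as a whole, 13 sites, had 32.8% ± 2.89 in HFD and 32.9% ± 2.57 in RD, and all samples lay between 28.4 and 36.9%. The 95% interval of the body difference ran from -3.55 to 3.39 points.

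One CpG of Adra1a, at 66638086, had the smallest p-value of the 98 member sites tested, those with a mean of 5 to 95%. Its values were 14.8, 10.7 and 20.7% in HFD females 2 to 4, 16.1, 13.2 and 14.3% in HFD males 2 to 4, 29.5, 37.0, 35.6 and 41.5% in RD females 1 to 4, and 20 and 35.7% in RD males 1 and 2. The diets overlapped only between HFD female 4 at 20.7% and RD male 1 at 20%. The means were 14.97% ± 3.34 in HFD and 33.2% ± 7.52 in RD (SD, n = 6 each), a difference of -18.3 points with an unadjusted p of 0.000311. It did not pass over all sites tested (limma, adjusted p = 0.293, and 0.109 to 0.570 over 22 alternatives). The other 7 sites of the same block did not share it. The nearest, at 66638129, had 17.2 and 19.5% in HFD and RD, and the block of 8 had 20.2% ± 4.02 and 19.4% ± 5.71 (limma, adjusted p = 0.960 for the tile).

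Adra1b encodes the alpha1B receptor and spans chromosome 11 from 43774605 to 43901250 on the minus strand. All of its 25 complete sites lay in the body, and 1 cluster sat just inside the inner RefSeq start at 43836489. There, 4 sites at 260 to 308 bp after the start had 2.34% ± 1.91 in HFD and 2.65% ± 1.24 in RD. The 4 sites at 560 to 621 bp had 60.2% ± 7.93 in HFD and 67.5% ± 3.49 in RD (SD, n = 6 each), so that methylation went from nearly none to over 60% between these positions. Between them lay 5 positions with missing values, whose diet means ranged from 3.46 to 26.4%. Along the rest of the gene the blocks averaged 38.0 to 72.5%, except 12 sites near the lower-coordinate end (43776249 to 43776306), which had 5.49% ± 1.73 and 4.76% ± 1.07. This second low stretch, in the 3′ region of Adra1b, had site means of 3.01 to 12.6%, against 0.335 to 5.94% at the 4 sites of the inner start. The body mean was 25.4% ± 1.20 in HFD and 25.7% ± 1.28 in RD, with an interval of -2.04 to 1.53 points.

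Of the Adra1b sites with a mean of 5 to 95%, the CpG at 43802875 had the smallest p-value. It had 86.7, 94.4, 78.3, 83.3, 82.4 and 86.7% in the HFD samples and 70.8, 68.3, 75.0, 67.7, 79.4 and 83.1% in the RD samples, with means of 85.3% ± 5.47 and 74.1% ± 6.25 (SD, n = 6 each). The groups overlapped and the difference of 11.2 points did not pass (limma, unadjusted p = 0.0140, adjusted p = 0.659). Among the tiles, fixed stretches of 500 bp with at least 3 sites, the 4 sites at 560 to 621 bp gave the smallest p in this gene (adjusted p = 0.688).

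Agt encodes angiotensinogen, the precursor of all angiotensins, which is made mostly in liver. Its gene runs from 124556587 to 124569706 on chromosome 8, minus strand. Of its 5 positions, 4 lay near the 3′ end (124556976 to 124557042). They had a mean of 78.3% ± 2.35 in HFD (SD, n = 6, range 75.0 to 80.9%) and of 72.7% ± 9.68 in RD (SD, n = 5, range 58.3 to 82.9%), with no value in RD female 2. The fifth, in the body at 124562599, had 59.7% ± 9.70 (SD, n = 5) and 68.3% ± 6.43 (SD, n = 6). Agt was thus methylated at every position read, none of them near its start. With no complete position it entered no main test, and with missing values allowed its 4-site end had an adjusted p of 0.811 and its 5 single sites adjusted p-values of 0.848 to 0.979 (limma).

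Ace encodes the angiotensin-converting enzyme, which sits on the surface of endothelial cells. It lies on chromosome 11 (105967948 to 105989964, plus strand), and 20 complete sites flanked its start. The 13 sites from -340 to -46, 10 of which are in capitals in the sequence above, had 5.81% ± 1.24 in HFD and 6.53% ± 4.24 in RD (SD, n = 6 each). The 7 sites from 170 to 243 bp after the start had 1.01% ± 0.863 and 0.385% ± 0.535. The window of 20 sites had a lowest, median and highest sample of 2.96, 3.94 and 5.65% in HFD and 1.46, 3.22 and 7.90% in RD, with the HFD samples inside the RD range. Its interval for the difference was -2.51 to 2.51 points.

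**Figure D2:**
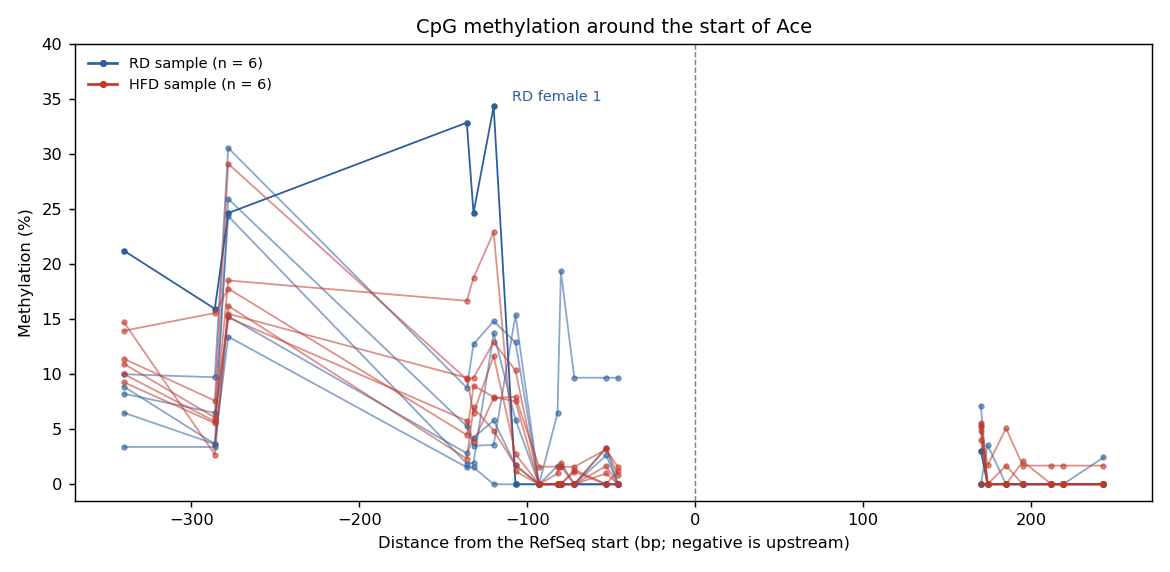
Methylation (y axis, percent) of the 20 complete CpG sites at the start of Ace against the distance from the RefSeq start (x axis, bp), 1 line per sample (blue RD, red HFD), broken where sites lie over 150 bp apart. Levels go from up to 34.3% in RD female 1 at -120 to nearly 0 at -93, and from there on the highest value is 19.4% in RD female 2 at -80.

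Within the Ace promoter the level changed over a few bases. In RD female 1 the CpGs at -136, -132 and -120 had 32.9, 24.6 and 34.3%, against 0 to 22.9% in the other 11 samples. At -107 the same sample had 0% and the samples ranged up to 15.4%, and at -93 only HFD male 2 was above 0, at 1.59%. At -80 RD female 2 stood alone at 19.4%. The body of Ace, 15 sites, was methylated, with 79.5% ± 2.28 in HFD and 79.3% ± 2.25 in RD and an interval of -2.64 to 3.21 points. Its blocks ran from 65.6 to 91.7% over the 12 samples and were highest near the 3′ end. Among sites with a mean of 5 to 95%, the smallest p was at 105972385, with 72.4% ± 12.2 and 60.7% ± 14.8 (SD, n = 6 each; limma, adjusted p = 0.820). The Ace tile with the smallest p, 3 sites from the same position, had 67.2% ± 8.65 and 64.0% ± 10.1 (limma, adjusted p = 0.937).

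Agtr1a encodes the AT1 receptor of angiotensin II (chromosome 13, 30336356 to 30382867), and only 4 sites were complete. The 3 sites in the lower-coordinate flank, within 5 kb of the gene, were at an intermediate level, with a lowest, median and highest sample of 35.6, 50.4 and 56.3% in HFD and 44.4, 52.0 and 55.2% in RD. HFD males 2 and 3, at 35.6 and 37.5%, and RD male 1, at 44.4%, were the lowest. The difference in means was -4.77 points, and -2.50 without HFD male 2 or -2.88 without HFD male 3. The means were 46.9% ± 8.38 and 51.7% ± 3.83 (SD, n = 6 each; limma tile, adjusted p = 0.871). One of these, at 30332038, had 40.0% ± 6.31 and 48.9% ± 4.90 (limma, adjusted p = 0.804). The single body site had 91.7% ± 1.81 and 93.3% ± 2.96.

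Nr3c1 encodes the glucocorticoid receptor (chromosome 18, 39410545 to 39519421). No RefSeq start was matched for Nr3c1, so its sites were placed by the gene limits alone. Its 36 complete sites all lay inside the gene, at -32869 to -28127 bp from its higher-coordinate end. Of them, 34 sites in 4 blocks were nearly unmethylated, with block means of 0.441 to 2.39% in either diet. The other 2 sites, at 39486552 and 39486576, had 40.6% ± 4.84 in HFD and 41.4% ± 4.96 in RD. The body mean had a lowest, median and highest sample of 2.35, 3.54 and 8.49% in HFD and 2.44, 3.22 and 4.12% in RD. The highest was HFD female 4, in which 15 sites of 1 block averaged 13.4% while the other 11 samples had 0 to 1.37%. The difference in body means was 0.952 points, and 0.0915 without HFD female 4. The interval of the difference was -1.16 to 3.22 points. Of the 3 sites with a mean of 5 to 95%, the one with the smallest p, at 39490362, had 5.94% ± 0.957 and 4.17% ± 3.53 (SD, n = 6 each; limma, adjusted p = 0.891).

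Nr3c2 encodes the mineralocorticoid receptor (chromosome 8, 76898083 to 77245012, plus strand). Its 32 complete sites fell into 2 classes. The 27 sites from -2223 to 60 bp of the RefSeq start at 76902330 had block means of 0.542 to 1.91% in either diet. The 5 sites farther in the gene, at 6983 to 6998 bp and at 284520 to 284532 bp after that start, had 95.9% ± 1.42 against 95.6% ± 1.37 and 95.4% ± 1.45 against 97.9% ± 1.01 in HFD and RD. The body mean was 16.0% ± 0.412 in HFD and 16.0% ± 0.403 in RD, with every sample between 15.5 and 16.6%, the narrowest range of the 6 bodies with at least 3 sites. Its difference had an interval of -1.08 to 1.18 points. The only site in the tested range, at 76909318, had 95.3% ± 2.36 and 94.3% ± 3.28 (limma, adjusted p = 0.968).

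Fkbp5 encodes FKBP51, a co-chaperone that lowers the hormone affinity of the glucocorticoid receptor and whose gene is itself switched on by that receptor. It lies on chromosome 17 (28398753 to 28486149, minus strand) and had 43 complete sites around its start. Of these, 36 sites, at 75 to 248 bp after the start (28485901 to 28486074), formed 1 block in which the mice differed widely. The block was singled out after its values had been seen. Its mean was 15.5, 5.79 and 6.88% in HFD females 2 to 4 and 9.94, 15.7 and 37.2% in HFD males 2 to 4. It was 62.3, 25.9, 12.8 and 5.53% in RD females 1 to 4 and 8.42 and 29.9% in RD males 1 and 2. RD female 1 was the highest, HFD male 4 the next, and samples of both diets and both sexes were among the low ones. Females averaged 19.2% and males 20.2%, and the female mean includes RD female 1 at 62.3%. In HFD the females had 5.79 to 15.5% and the males 9.94 to 37.2%. In RD the females had 5.53 to 62.3% and the males 8.42 and 29.9%.

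**Figure D3:**
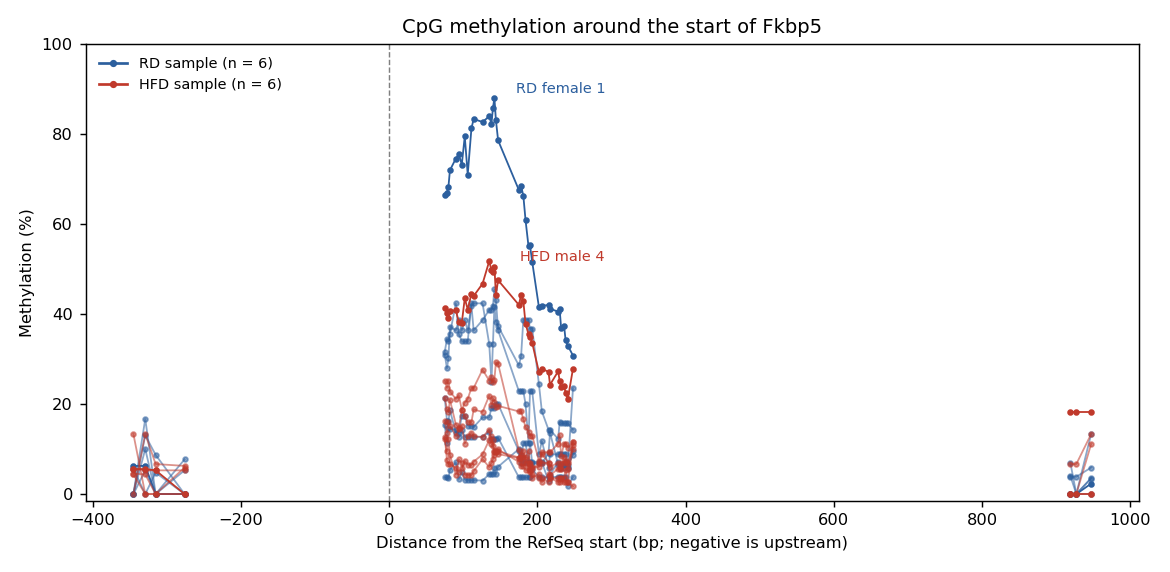
Methylation (y axis, percent) of the complete CpG sites around the start of Fkbp5 against the distance from the RefSeq start (x axis, bp), 1 line per sample (blue RD, red HFD, 6 each). Samples fan out between 75 and 248 bp, up to 87.9% at 1 site of RD female 1, and lie at 18.2% or lower at the sites on both sides.

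Levels were lower on both sides of the block, with exceptions in single mice. Upstream, 4 sites at -345 to -276 had 4.02% ± 2.03 in HFD and 3.73% ± 1.61 in RD, and RD female 1 had 3.12% there. The 10 promoter CpGs in capitals in the Fkbp5 sequence above averaged 0% in RD female 1, over 6 of them with a value, and 0 to 2.85% in the other samples except RD female 2, which had 14.8%. Downstream, 3 sites at 919 to 947 bp had 5.13% ± 7.29 and 2.62% ± 1.72, with the highest, 18.2%, in HFD male 4 and 8.89% in HFD male 2. No complete site lay between 248 and 919 bp, so where the level changes downstream was not resolved. Inside the block the part nearer the start (18 sites, 75 to 147 bp) was above the farther part (18 sites, 175 to 248 bp) in 11 of 12 samples. The nearer part had 19.3% ± 13.6 in HFD and 31.0% ± 26.3 in RD, and the farther part 11.1% ± 9.92 and 17.2% ± 16.2. The 36 sites moved together from mouse to mouse. Pearson's r between pairs of sites over the 12 samples had a median of 0.946 and ran from 0.792 to 0.998 over 630 pairs, a description of sites that share fragments and libraries.

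The spread of this block was among the widest in the table. Its SD within diets was 17.0 percentage points. Of all 37654 blocks with at least 3 sites, 14 (0.0372%) had a larger SD, and of the 3335 blocks with a mean of 10 to 40%, 10 did, with a median of 4.72. The Fkbp5 start window had an SD of 14.3 points, and 20 of 11524 gene-end windows (0.174%) had a larger one, with a median of 1.72. Other windows moved in the same libraries. RD female 1 was over 20 points above the median of the 12 samples in 108 windows, HFD male 4 in 42, RD male 2 in 35, HFD male 3 in 30 and RD female 2 in 24, against 0 to 13 in the other 7 samples. HFD male 4, RD female 2 and RD male 2 also had the fewest positions with a value (385299, 391923 and 400223), while RD female 1 (410499) and HFD male 3 (410219) did not. The part of these libraries' properties in the Fkbp5 levels was not tested.

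**Figure D4:**
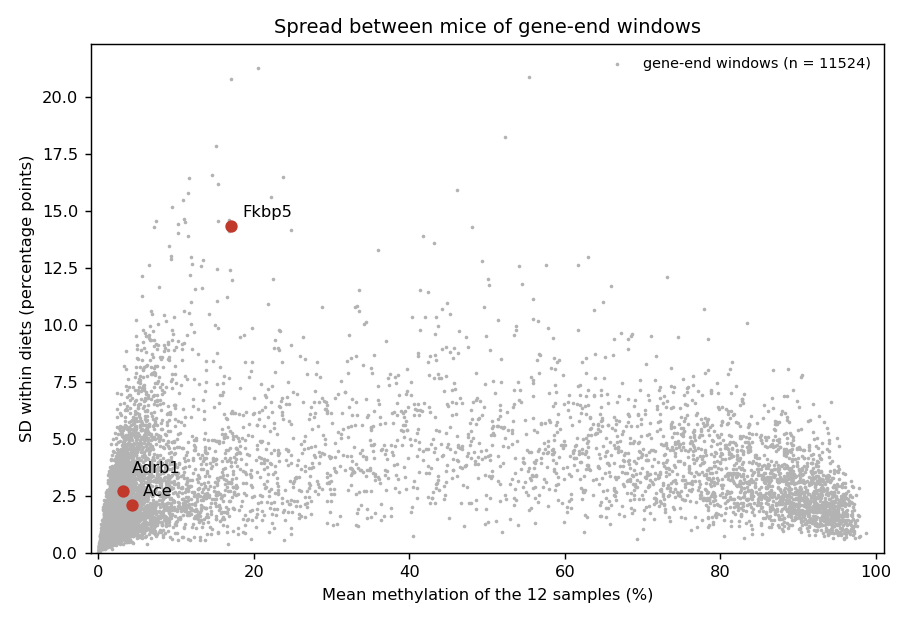
SD within diets (y axis, percentage points) against the mean of the 12 samples (x axis, percent) for 11524 gene-end windows (grey), with the start windows of Fkbp5, Ace and Adrb1 in red. Fkbp5 lies at an SD of 14.3 and a mean of 17.1%, high above most windows, and Ace and Adrb1 lie among the low ones.

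By diet, the Fkbp5 block had 15.2% ± 11.6 in HFD and 24.1% ± 21.0 in RD (SD, n = 6 each), and the ranges overlapped, at 5.79 to 37.2% and 5.53 to 62.3%. With sex in the model the difference was -9.40 points with a 95% interval of -30.6 to 11.8. It rested on 1 library, since without RD female 1 the difference in means was -1.34 points, with RD at 16.5% ± 10.8. The start window of 43 sites had 13.4% ± 10.1 and 20.7% ± 17.6 (limma, adjusted p = 0.868, with 0.754 to 0.994 over the alternatives). The tile with the smallest p, 22 sites, had an adjusted p of 0.880. The CpG with the smallest p in the tested range, at 28486059, had 16.7% ± 13.3 and 31.4% ± 25.3 (limma, adjusted p = 0.853). Away from the start, the 2 body sites averaged 86.3% ± 11.9 and 85.9% ± 3.22, with HFD female 2 at 36.4% at one of them (a difference of 0.389 points, and 4.92 without that sample), and 3 upstream flank sites had 90.9% ± 1.27 and 91.2% ± 1.32.

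No feature of the 9 genes passed the test between the diets. Of 98 member sites with a mean of 5 to 95%, 0 were called by limma, against 0.0102% of all 157524 sites tested. An unadjusted p under 0.05 was found at 2 of the 98 (2.04%), against 6.53% of all sites. None of these 98 had diets that did not overlap, against 0.482% of all. Of 11 member tiles 0 were called (0.0294% of all tiles), 0 had an unadjusted p under 0.05 (7.81% of all tiles) and 0 had diets that did not overlap (0.626%). Of gene-end windows 1 was in the tested range, that of Fkbp5, and it was not called (0.12% of all windows were), had no unadjusted p under 0.05 (7.91% of all windows had) and had overlapping diets (0.504% of all windows did not overlap). Of 4 gene bodies, those of Adra1a, Adra1b, Ace and Nr3c2, 0 were called (0.142% of all bodies), 0 had an unadjusted p under 0.05 (8.31%) and 0 had diets that did not overlap (0.649%). The depth of these values is unknown, and the intervals above give the sizes of difference that the 12 samples leave possible. They are narrow for the bodies of Nr3c2 and Adra1b and wide for the Fkbp5 start. Of the 32 Nr3c2 body sites, however, 27 had a mean under 5%, 4 a mean over 95% and 1 lay between. Of the 25 Adra1b body sites 10 had a mean under 5%. The interval of such a mixed mean does not apply to the methylated body sites alone.

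**Figure D5:**
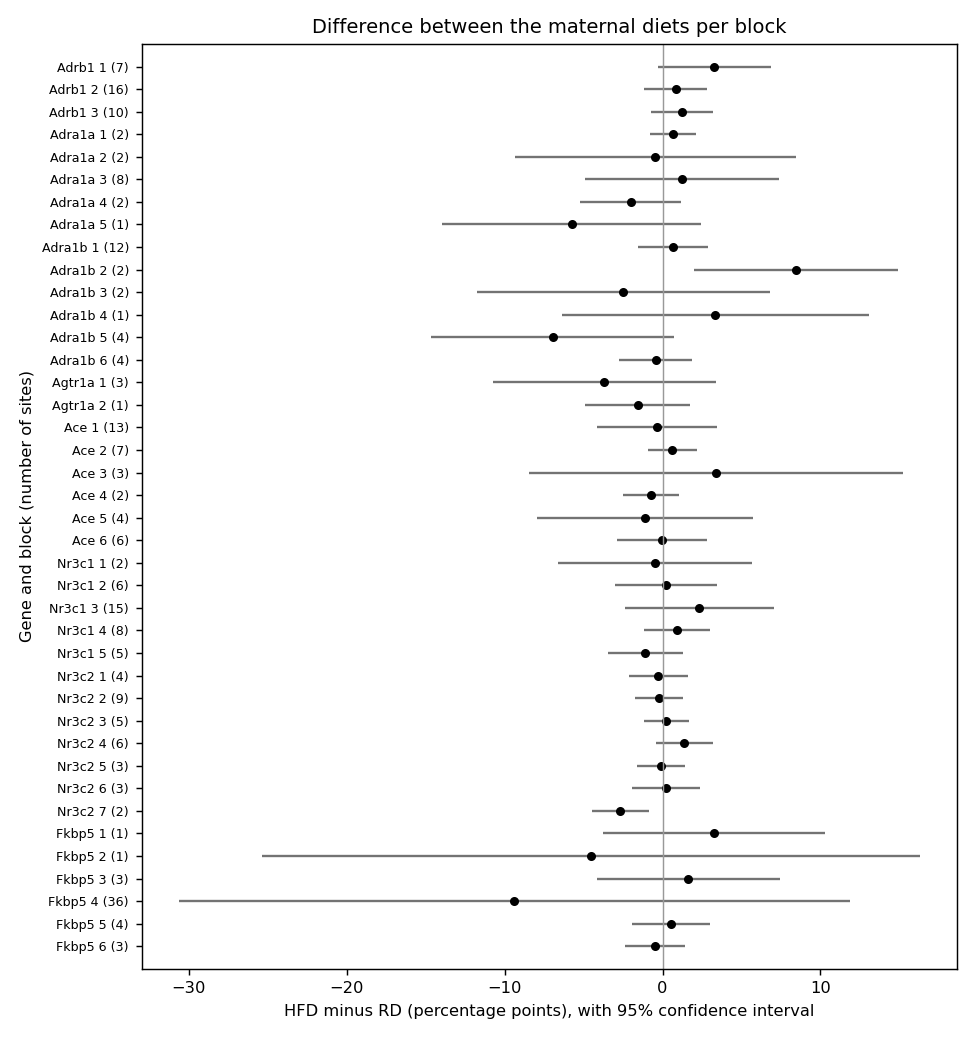
Difference between HFD and RD (x axis, percentage points, with sex in the model) for the 40 blocks (y axis, number of sites in brackets), with points for estimates and bars for 95% confidence intervals not adjusted for the number of blocks. Adra1b block 2 and Nr3c2 block 7 have intervals that do not include 0, and the widest bar is that of the 36-site Fkbp5 block.

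Over the 98 sites, 66 were lower in HFD and 32 higher, with a median difference of -3.17 points, against -0.259 points and 52.9% lower over all sites tested. This split came from Fkbp5, where 39 of 42 tested sites were lower. Its sites move together and their difference rested on RD female 1. Without Fkbp5, 27 of 56 were lower, with a median of 0.0856 points. Of the 40 blocks 0 had diets that did not overlap, against 0.534% of all 69303 blocks fitted. Intervals that did not include 0 were found for 2 of the 40, against 6.95% of all. The 2 sites of Adra1b at 43802875 and 43802906 had 77.0% ± 6.81 in HFD and 67.9% ± 3.61 in RD, with an interval of 1.998 to 14.9 points. The 2 sites of Nr3c2 at 77186850 and 77186862 had 95.4 and 97.9%, with an interval of -4.50 to -0.836. Neither interval is adjusted for the 40 blocks.

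At sites with a mean under 5%, which were outside the test, a slight excess in HFD was measured. There were 122 such member sites, of which 89 (73.0%) had the higher mean in HFD, 26 the lower and 7 the same, against 52.7% higher over all 128368 such sites. Neighbouring sites share fragments and are not independent. Of the 89, 28 were in Adrb1 and 26 in Nr3c1, and without HFD female 4 only 14 of the 33 Nr3c1 sites had the higher mean in HFD. Leaving out 1 sample at a time gave 76 (without HFD female 4) to 93 of 122, and over all such sites 48.1 to 56.4%. The median difference was 0.626 points for the members and 0.0875 points for all. A run of 5 sites of Nr3c2 upstream of its start, at -342 to -297, were at 0% in all 6 RD samples and at means of 1.19 to 1.37% in HFD. They were singled out for this pattern. In all, 27 of the 122 member sites (22.1%) were at 0 in every RD sample and above 0 in at least 1 HFD sample, against 15.1% of all such sites. At 2 of the 5, at -339 and -331, every HFD value was above 0, from 0.529 to 3.73%, so the diets did not overlap. These were the only such sites among the 122 (1.64%), against 0.234% of all 128368. Across all such sites of the table the share at exactly 0 was 45.7 to 58.0% in the HFD samples and 59.1 to 68.0% in the RD samples, and the diets did not overlap in it. Its part in the difference at the members was not tested. Without a limit on the mean, 221 member sites were tested and limma called 0, against 0.00704% of all 298205. An unadjusted p under 0.05 was found at 10 of the 221, against 6.04% of all.

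The diets' difference was compared between the sexes on the 11 member tiles. Limma called 0 for the interaction of diet and sex (0% of all 23791 tiles), and 1 tile had an unadjusted p under 0.05, against 5.09% of all. It was that of Ace at 105972385 to 105972446, with means of 73.4% in HFD females (n = 3), 61.1% in HFD males (n = 3), 59.8% in RD females (n = 4) and 72.2% in RD males (n = 2) (limma, unadjusted p = 0.00886, adjusted p = 0.931).

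Other genes of the same pathways were read from lists. Of 25 further adrenergic genes (receptors, kinases, cyclases and phosphodiesterases), 18 had gene-end windows, and 15 of 20 windows were under 5%. Of these windows 5 were tested, 0 were called by limma and 0 had an unadjusted p under 0.05. The smallest p-values were those of the receptors Adra2c (14.5% ± 1.95 in HFD and 13.003% ± 3.65 in RD) and Adra1d (12.5% ± 2.05 and 14.3% ± 3.36) and of the cyclase Adcy5 (16.8% ± 5.08 and 18.8% ± 3.58). Of 11 further angiotensin and aldosterone genes, 2 had a window, both under 5%, and 0 were tested. Of 14 partners and targets of the corticoid receptors, 10 had windows, 8 of 11 windows were under 5% and 3 were tested, with 0 called and 0 at an unadjusted p under 0.05. These were those of the coactivator Ncoa1 (8.05% ± 6.21 and 4.31% ± 4.61), the phosphatase Dusp1 (4.96% ± 2.22 and 5.49% ± 3.00) and the co-chaperone Fkbp4 (7.81% ± 3.63 and 8.50% ± 7.40), with n = 6 in each diet. For scale, 62.4% of all gene-end windows were under 5% and the median gene body had 66.8%. Of the 6 member bodies with at least 3 sites, those of Adrb1, Nr3c1, Nr3c2, Adra1a and Adra1b lay under that median and that of Ace above it. By the gene limits used, a body can include sites near an inner RefSeq start. It does in Nr3c2 (27 of 32 sites at -2223 to 60 bp), Adra1b (8 sites at 260 to 621 bp) and Ace (2 sites at -1229 to -1163 bp of a second start at 105975189). For Nr3c1, Adra1a and Agtr1a no RefSeq start was matched, so whether their body sites lie near one was not checked. Of the 36 Nr3c1 body sites 33 had a mean under 5%. The 1 body site of Agtr1a (92.5% over the 12 samples) and the 2 of Fkbp5 (86.1%) also lay above the median gene body.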

How the data were processed

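CpG methylation was measured by RRBS: DNA is cut with MspI at CCGG, treated with bisulfite and sequenced, per the labels' protocols. The authors deposited 1 table of percent methylation per cytosine and sample, per the file headers, with no coverage. Tools named in the submitters' processing notes are FastQC, Trim Galore, Bismark 0.19 and limma, on mm10, with no role given. Of 45522 table positions inside RefSeq promoters (GRCm38.p6), 99.98% fell on a CpG, so positions were read as GRCm38, 1-based, 1 strand per row.

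Sites, 500 bp tiles, gene-end windows (1000 bp each side of each end) and gene bodies, the last 3 as means of at least 3 sites, with a mean of 5 to 95% were fitted over the whole table as log2((rate + 0.05)/(1 - rate + 0.05)) with diet and sex (limma 3.58.1, R 4.3.3). Tests were two-sided, with Benjamini-Hochberg adjustment over all features of a class and a threshold of 0.05. Intervals at the 95% level came from the same fit on untransformed rates without limits on the mean, an analysis added after the data were seen. Neither exons nor introns were used here. On simulated shifts of 2 in the log2 ratio, 53.5% of 200 changed sites among 157524 and 97% of 200 tiles among 23791 were recovered. The members and gene lists were chosen with earlier results of these data known. All windows and bodies of the 9 genes were named, and of single sites and tiles the 1 per gene with the smallest p-value among those tested, with up to 3 windows per list. Same-numbered samples did not deviate together (r -0.057 to 0.021 over 13 pairs). Alternatives covered transformation, limits, missing values, region sizes, the sex term, a replicate block and each sample left out.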

Additional observations from a re-analysis of the deposited data

Results flagged for a closer look

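In 4 of 28 groups of sample values examined, 1 sample stood farther from the others than Dixon's 95% critical value allows, where chance gives about 1.4 (1 group in 20). At the start of Adrb1, HFD male 3 had 11.6% against 1.18 to 4.75% in the other HFD samples. In the flank of Agtr1a, RD male 1 had 44.4% against 51.9 to 55.2% in the other RD samples. In the body of Nr3c1, HFD female 4 had 8.49% against 2.35 to 4.21%. In the Fkbp5 start window, HFD male 4 had 32.8% against 5.46 to 13.5% in the other HFD samples. The cause was not tested for any of the 4.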

How the results depend on the processing

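For sites, tiles, gene-end windows, gene bodies and the interaction of diet and sex, the number of called features in the 9 genes was 0 in the reported fit and under each of 22, 25, 24, 24 and 22 alternatives. Counts at an unadjusted p under 0.05 ran from 2 to 10 for sites, 0 to 1 for tiles, 0 to 1 for windows, 0 to 0 for bodies and 0 to 2 for the interaction. Leaving out each sample in turn gave 0 calls throughout, and so did the replicate block, under which the calls over the whole table numbered 0 sites, 3 tiles, 2 windows, 1 body and 0 interaction tiles. The samples share only a number, so nothing is drawn from the block. Of 196 alternative values of 14 regional differences, 192 moved by less than 1 SD, although leaving out 1 sample changed the sign of small differences in the bodies of Ace, Adra1a, Nr3c2 and Fkbp5, at the start of Ace and in the Fkbp5 flank, and moved other small ones by over 1.5 times. The other 4 were Adra1a's lower end with missing values allowed (2.01 points, from 0.763), Adra1b's body as a median (1.05, from -0.356) and Nr3c2's body as a median (0.537) or with missing values allowed (0.761, from 0.00198), and the cause was not tested. The Fkbp5 start difference ran from -11.2 to -0.955 points with 1 sample left out. Depth is unknown, so the planned coverage minimum was not run, and shifts of 1 in the log2 ratio were recovered at 0 of 200 simulated sites.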
